A study of Homo sapiens with 151 samples.

Results

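The genes examined were 7 genes of cholesterol supply: HMGCS1, MVK, MVD, IDI1 and SQLE, which encode enzymes of the synthesis route, SREBF2, which encodes the transcription factor that drives the route, and INSIG1, which encodes a protein of the endoplasmic reticulum that holds this factor back when sterols are plentiful. They were taken by symbol from the 20033 protein-coding genes of GENCODE 44. For each gene, every DNA-associated protein (DAP) was recorded whose list of ChIP-seq peaks had a peak reaching into the 500 bp on either side of any annotated transcription start site (TSS). The rule itself sets no threshold on the lists, though the genes were put forward with earlier results of these data known.

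All lists came from HepG2, a line grown from a human liver cancer, and no treatment, time or genotype was compared. Each group was a single DAP, tagged with the FLAG epitope by CETCh-seq (CRISPR epitope tagging ChIP-seq, which adds the tag to the DAP's own gene), crosslinked with 1% formaldehyde, precipitated with the antibody Monoclonal Anti-FLAG M2 and set against an input library. Each DAP had 1 list, so no replicate lists could be compared and the lists themselves served as the sampled unit. Among the lists that the study prefers, 15 were of DAPs that are not sequence-specific transcription factors (TFs) and the rest were of TFs, and 6 more lists were non-preferred and were kept apart. A tagged DAP in a cancer line is a limited model of the liver cell, and a peak gives presence on the DNA and not an effect on the gene.

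Cells build cholesterol from acetyl-CoA. HMGCS1 makes HMG-CoA, which is reduced to mevalonate, and MVK and then MVD phosphorylate and decarboxylate the chain to give the isoprene unit that IDI1 isomerises. SQLE oxidises squalene and is, with HMG-CoA reductase, a slow step of the route. When sterols fall, the precursor of the SREBF2 protein (SREBP2) is released from INSIG1 and cut in the Golgi, and the freed part binds sterol regulatory elements, usually beside CCAAT boxes bound by NF-Y and GC boxes bound by Sp1. Neither SREBP nor NF-Y was among the lists used here.

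The sequence upstream of the canonical TSS is shown for 5 of the genes, because the positions of the known elements are set beside the peaks in what follows. The stretches are from hg38 and leave out exons of protein-coding genes. Each is written 5′ to 3′ in the direction of the gene. Capitals mark TCACNCCAC (the core of a sterol regulatory element), CACGTG (E-box), CCAAT (NF-Y core), GGGCGG (GC box), CCGGAAGT (ETS core) and ATGCAAAT (octamer) on either strand, so that CCAAT on the opposite strand reads ATTGG and GGGCGG reads CCGCCC.
HMGCS1 promoter, chr5:43313513-43313712, minus strand: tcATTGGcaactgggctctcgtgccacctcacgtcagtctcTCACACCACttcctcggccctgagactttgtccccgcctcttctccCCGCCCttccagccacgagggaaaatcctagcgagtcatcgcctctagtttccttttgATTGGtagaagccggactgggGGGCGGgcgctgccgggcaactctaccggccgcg
SREBF2 promoter, chr22:41832805-41833104, plus strand: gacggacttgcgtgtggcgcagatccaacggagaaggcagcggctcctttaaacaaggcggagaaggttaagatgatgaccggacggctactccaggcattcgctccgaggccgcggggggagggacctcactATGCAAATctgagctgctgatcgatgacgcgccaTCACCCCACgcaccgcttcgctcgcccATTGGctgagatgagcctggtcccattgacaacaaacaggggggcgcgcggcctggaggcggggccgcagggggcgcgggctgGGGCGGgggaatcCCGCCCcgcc
MVD promoter, chr16:88663162-88663391, minus strand: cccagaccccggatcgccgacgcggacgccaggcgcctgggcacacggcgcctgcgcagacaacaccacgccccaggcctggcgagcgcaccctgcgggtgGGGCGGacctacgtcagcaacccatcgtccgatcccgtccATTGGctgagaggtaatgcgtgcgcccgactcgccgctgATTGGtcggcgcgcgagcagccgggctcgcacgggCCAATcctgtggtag
MVK promoter, chr12:109573581-109573792, plus strand: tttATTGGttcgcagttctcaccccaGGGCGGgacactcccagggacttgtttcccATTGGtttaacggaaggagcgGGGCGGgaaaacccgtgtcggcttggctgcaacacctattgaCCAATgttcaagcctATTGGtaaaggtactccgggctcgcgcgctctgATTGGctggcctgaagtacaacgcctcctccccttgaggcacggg
IDI1 promoter, chr10:1049120-1049419, minus strand: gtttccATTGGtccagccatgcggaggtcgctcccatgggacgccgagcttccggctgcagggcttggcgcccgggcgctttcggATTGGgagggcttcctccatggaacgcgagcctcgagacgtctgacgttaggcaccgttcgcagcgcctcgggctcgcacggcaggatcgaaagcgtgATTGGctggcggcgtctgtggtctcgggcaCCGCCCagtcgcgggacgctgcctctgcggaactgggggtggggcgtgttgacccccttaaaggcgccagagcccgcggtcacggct

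The mevalonate enzymes MVD and MVK were held by the most lists and SQLE by the fewest among the genes with any peak. MVD had a peak in 75 preferred lists and none in 46 (62% of lists, 95% Wilson interval 53.1 to 70.1). MVK had one in 71 lists and none in 50 (58.7%, interval 49.8 to 67.1). SREBF2 and IDI1 each had one in 57 lists and none in 64 (47.1%, interval 38.4 to 56.0), and HMGCS1 in 56 lists and none in 65 (46.3%, interval 37.6 to 55.1). SQLE had one in 39 lists and none in 82 (32.2%, interval 24.6 to 41.0). In the order of the counts, the neighbours MVD and MVK, and any 2 of SREBF2, IDI1 and HMGCS1, were not set apart by the paired test given further on. The intervals cover counting error over lists only.

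INSIG1 had no peak in any preferred list, and none in the 6 non-preferred lists. The nearest peaks in the lists used here lay 27539 bp upstream in the SALL1 list and 33790 bp upstream in the ZNF865 list. Whether every peak near this gene is among the rows used here is not known, so the 0 is a count of those rows and is not given as absence of binding. Were all of them included, the Wilson interval would allow up to 3.08% of lists.

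**Figure D1:**
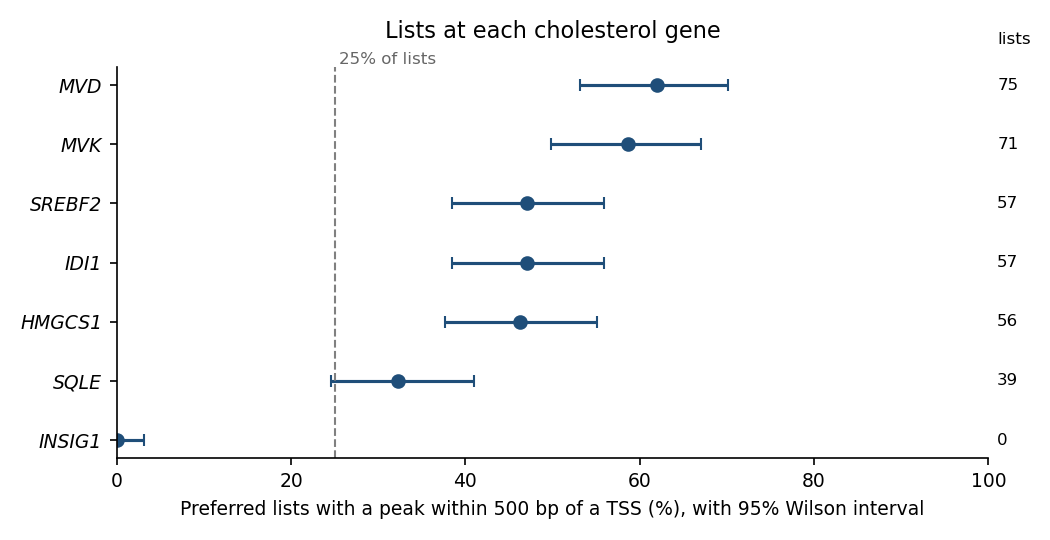
Share of preferred lists with a peak within 500 bp of a TSS (horizontal axis, percent) for each of the 7 genes (vertical axis). Points are shares, bars are 95% Wilson intervals, the number of lists stands at the right and the dashed line marks 25% of lists; 6 of the 7 genes lie between 32.2% and 62%, and INSIG1 lies at 0.

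Of the 7 genes, 6 were held by at least 25% of the preferred lists (31 lists), a level that 42.1% of all protein-coding genes reached, and 72.9% of them had at least 1 list. The median over the 7 genes was 57 lists, against 22 lists over all protein-coding genes. Fewer lists than at MVD were counted at 93.3% of protein-coding genes, and fewer than at SQLE at 65.6%. Another 27.1% of protein-coding genes had no preferred list. With only peaks of a score of 830 or more, 5 of the 7 genes reached 25% of lists and so did 20.1% of protein-coding genes.

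Other genes of the route showed a like range. Of 31 of them, taken as a list of synthesis, uptake and sterol-sensing genes, 26 reached 31 lists, with a median of 52 lists and a range of 6 to 100. The most lists were at PMVK (100 lists), which encodes the kinase acting between MVK and MVD, at ACAT2 (91 lists), which encodes a cytosolic acetoacetyl-CoA thiolase, and at SREBF1 (75 lists), which encodes the related factor SREBP1. The fewest were at NSDHL (6 lists), EBP (7 lists) and HSD17B7 (18 lists), whose enzymes work on sterols late in the route. By role, all 7 sterol-sensing genes reached 31 lists (median 59), as did 6 of 7 uptake and trafficking genes (median 50) and 8 of 11 genes from squalene to cholesterol (median 43). INSIG2, the relative of INSIG1, had 57 lists.

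The number of the 7 genes that a list held followed how many promoters the list reached. No member was held by 22 lists, 1 member by 18 lists, 2 by 13, 3 by 15, 4 by 17, 5 by 18 and 6 by 18, and no list held all 7. The median list with 6 members had 22750.5 peaks and reached 42.3% of protein-coding promoters, and the median list with 0 members had 1981.5 peaks and reached 4.39%. Across the preferred lists, Spearman's rho between members held and promoters held was 0.87, and between members held and peaks 0.80, both given as descriptions over lists that share the same genes and partly the same input libraries.

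**Figure D2:**
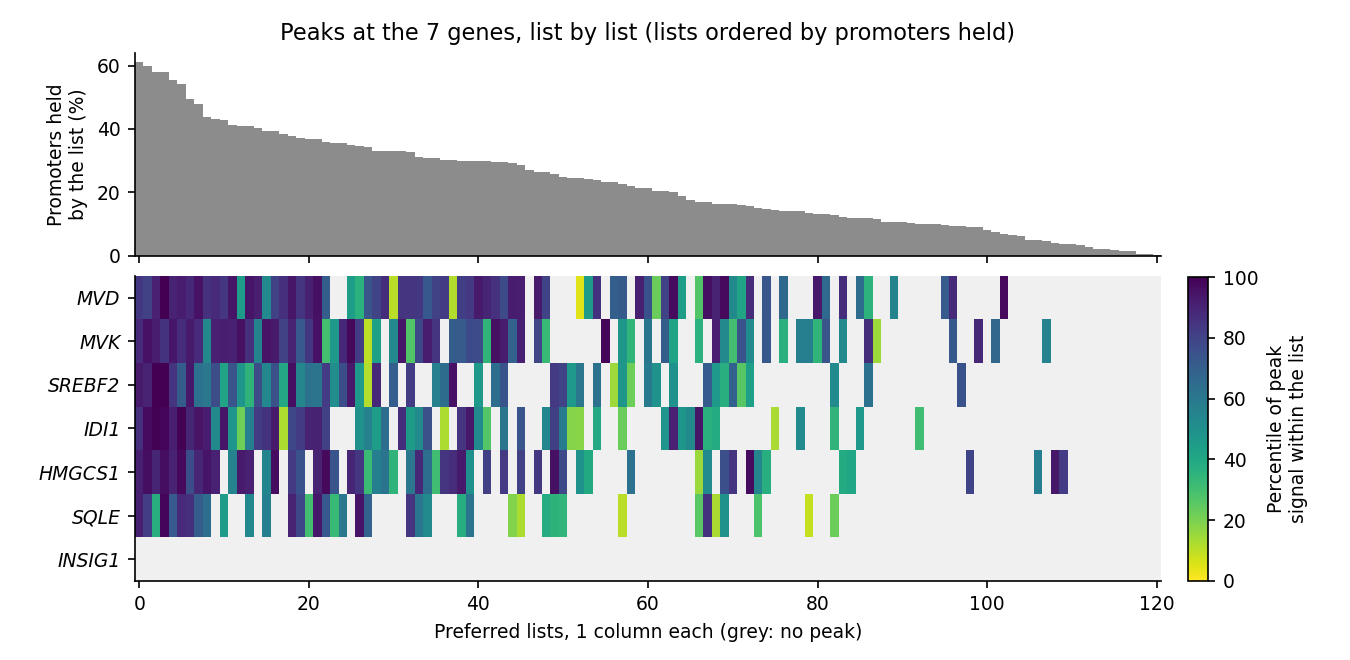
Each column is a preferred list, ordered by the percent of protein-coding promoters it held (upper axis). Lower rows are the 7 genes, coloured by the percentile of the gene's strongest promoter peak among all peaks of that list by the signal column, with grey for no peak; the columns at the left are filled for 6 genes, the INSIG1 row is empty, and scattered peaks reach far to the right for HMGCS1, MVK and MVD.

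The lists with peaks at all 6 genes were SALL1, ZBTB12, MGA, ZMYM4, POU2F1, ZFP91, E2F8, SMAD7, MED12, AFF1, BAZ2A, ZNF701, E4F1, ZNF746, SRY, HES4, HSF4 and ZNF571. They had 12766 to 61748 peaks and reached 32.9% to 61.0% of protein-coding promoters. MED12 is a subunit of the Mediator kinase module, and MGA is a MAX partner. The shortest lists with 5 members were ZNF669 (5068 peaks, all but IDI1), TTF1 (5447 peaks, all but HMGCS1), ZNF222 (6129 peaks, all but SREBF2) and ZNF850 (6261 peaks, all but MVK), which reached 16.3% to 17.1% of promoters. These 4 were picked out after their counts were seen.

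The longest lists with no member were ZNF646 (12071 peaks, 14.2% of promoters), ZFHX3 (10605 peaks, 10.7%), PHTF1 (9562 peaks, 26.9%), FOSL1 (8680 peaks, 10.1%) and TRIM24 (4673 peaks, 3.51%). PHTF1 thus reached more promoters than ZNF669 did and none of the 7. ZMYM2 had 19597 peaks and only the MVK promoter among these genes, and ZNF865 had 22769 peaks and only those of SREBF2 and MVD.

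The genes were not added in a fixed order from list to list. With the genes ordered by their counts, 57 lists held a gene without one of a higher count, and 64 lists did not. SREBF2 and IDI1, with equal counts, were not ordered against each other. The 64 include the 22 lists with no member and the 18 with 6, which follow any order of the 6 genes. Ordered by promoters reached, the 31 lists of the lowest quartile (0.270% to 10.7% of promoters) still had peaks at HMGCS1 in 4 lists and at MVK in 4, at MVD in 3, at SREBF2 in 1 and at IDI1 in 1, and at SQLE in none. In the top quartile of 30 lists, SREBF2 and MVK had 29 lists each, MVD 28, IDI1 27, HMGCS1 25 and SQLE 21.

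Which lists told the genes apart was then asked pair by pair, since each list was measured at both genes. Of the 15 pairs among the 6 genes with peaks, 10 passed the exact McNemar test (two-sided, Benjamini-Hochberg adjusted over all 21 pairs). The 6 pairs with INSIG1 have every list on one side and are not described further.

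SQLE was held by fewer lists than each of the other 5 genes. Against MVD, 7 lists had a peak at SQLE only and 43 at MVD only (adjusted p = 6.3e-07). Against MVK, 5 lists were at SQLE only and 37 at MVK only (adjusted p = 1.2e-06). Against IDI1 the numbers were 6 and 24 (adjusted p = 0.0033), against SREBF2 10 and 28 (adjusted p = 0.0082) and against HMGCS1 9 and 26 (adjusted p = 0.009), each with SQLE first. The SREBF2 pair ended at an adjusted p of 0.058 with a window of 250 bp and with the summit inside the window, and the IDI1 pair at 0.073 without the lists that had the most used input library as their only input and at 0.095 without every list that names it.

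MVD, with the most lists, passed the test against all but MVK. It was held without SREBF2 by 26 lists and SREBF2 without it by 8, with the same numbers for IDI1 (adjusted p = 0.0056 each), and for HMGCS1 29 and 10 lists (adjusted p = 0.0059). Without every list that names the most used input library, 18 lists were at MVD only and 10 at HMGCS1 only, and this call was lost (adjusted p = 0.23). The MVD and MVK lists shared 61 lists, 81.3% of those at MVD and 85.9% of those at MVK, and 14 were at MVD only and 10 at MVK only (adjusted p = 0.63). Their difference was 3.31 percentage points of lists (95% interval -4.61 to 11.2). MVK was held without HMGCS1 by 28 lists and HMGCS1 without MVK by 13, and 25 and 11 lists separated MVK from SREBF2 (adjusted p = 0.038 each). Both of these calls were lost under some alternatives, with adjusted p up to 0.5 and 0.27. The pair of MVK and IDI1 (28 and 14 lists) had an adjusted p of 0.054, and passed under 4 of the 10 alternatives (adjusted p down to 0.0056).

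SREBF2, IDI1 and HMGCS1 had nearly equal counts, from lists that overlapped in part. SREBF2 and IDI1 were each held by 17 lists without the other, SREBF2 and HMGCS1 by 19 and 18, and IDI1 and HMGCS1 by 20 and 19 (adjusted p = 1 for all 3 pairs). The interval for SREBF2 less IDI1 was -9.45 to 9.45 percentage points, for SREBF2 less HMGCS1 -9.03 to 10.7 and for IDI1 less HMGCS1 -9.29 to 10.9. IDI1 and HMGCS1 shared 37 lists, 64.9% of those at IDI1 and 66.1% of those at HMGCS1. The lists shared over the lists at either gene were 0.54, 0.51 and 0.49 for these 3 pairs in that order. For MVK with SREBF2, IDI1 and HMGCS1 they were 0.56, 0.51 and 0.51, so such a partial overlap was not particular to the 3 pairs.

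**Figure D3:**
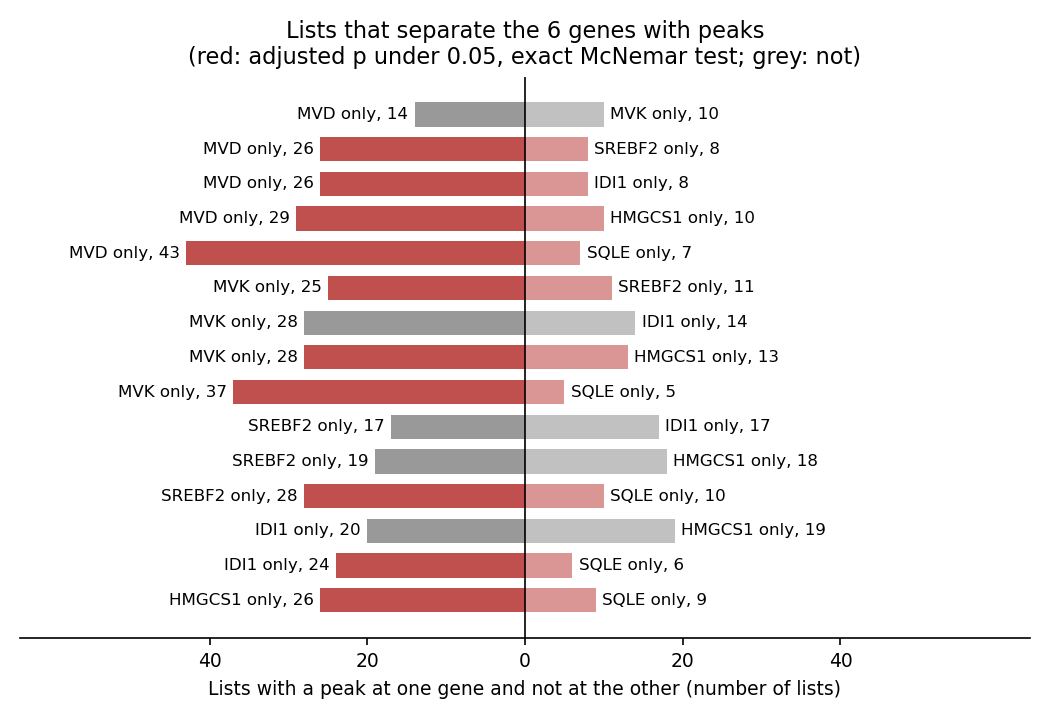
Numbers of preferred lists with a peak at one gene and not at the other (horizontal axis, zero in the middle) for the 15 pairs of the 6 genes with peaks, 1 pair per row. Red rows have an adjusted p under 0.05 in the exact McNemar test and grey rows do not; the longest bar is 43 lists at MVD and not at SQLE.

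Among the genes with peaks, MVD and SQLE were separated by the most lists. The 7 lists at SQLE and not at MVD were ZSCAN25, HIC2, ZNF747, KAT6A, ZNF280C, SP110 and CAMTA1. The 10 longest lists at MVD and not at SQLE were NCOA2, ZNF430, ZNF865, MEIS2, RCOR3, FOXC1, MEIS1, SALL2, STAT5A and ZNF74. KAT6A is a histone acetyltransferase, and its list held HMGCS1, SQLE, SREBF2 and IDI1 and neither MVD nor MVK, a pattern shared only with HIC2 among the preferred lists.

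Lists with a single one of these genes fell on 5 of them. HMGCS1 alone was held by ZNF140, ZNF75D, ZNF688, FAM200B and ZNF783, of which the last 3 had 1250 to 1484 peaks and reached 3.87% to 4.86% of promoters. MVK alone was held by E2F7, FOXO4, NFIB, ZMYM2 and ZNF148. MVD alone was held by CENPBD1, NPAS2, PAX8 and ZNF45. IDI1 alone was held by ELK4, MED13L and MLXIP, and SREBF2 alone by ZNF284. No list held SQLE alone.

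Lists of DAPs with a known link to nuclear receptors and lipid metabolism held differing sets of these genes. NR1H2, the oxysterol receptor LXR beta, had peaks at HMGCS1, SREBF2, MVD and MVK and none at SQLE or IDI1, in a list that reached 16.2% of promoters. By the signal column these peaks lay at the percentiles 84.8, 68.8, 52.6 and 29.9 of its list in that order of genes. The NCOA2 list, of a coactivator of nuclear receptors, held the same 4 genes as NR1H2 and reached 33.1% of promoters. This set of 4 was also that of HES6 (30.1% of promoters), JRK, ZIM2 and ZNF74, so it was not particular to these 2 lists. NCOA1, the related coactivator, held all but HMGCS1, with its strongest peak of them at MVD (percentile 71.7) and its weakest at SQLE (percentile 10.4). The glucose-sensing factor MLXIP had a peak at IDI1 only, at percentile 12.6 of its list. KLF15 held SREBF2 and MVD, at percentiles 48.5 and 22.8.

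The ETS factors differed from each other. ELK3 held SQLE, MVD, MVK and IDI1 (26.3% of promoters reached), and ELK4 held IDI1 only (10.2% of promoters reached). The Mediator lists differed likewise, with MED12 at all 6 genes and MED13L at IDI1 only (37.7% and 17.7% of promoters reached). STAT5A held all but SQLE, SIX5 all but SREBF2, PRMT5 held MVD and MVK, FOXO4 and ZNF148 held MVK only, NPAS2 held MVD only and TRIM24 none. These differences between single lists have no replicate to be tested on.

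The class of the DAP was compared over lists. Lists of non-TF DAPs held 2.87 ± 2.47 of the 7 genes (SD, n = 15) and lists of TFs 2.94 ± 2.06, a difference of -0.077 (permutation test with 100000 permutations, two-sided, adjusted p = 0.89). Within quartiles of lists by promoters reached, the non-TF lists held fewer, with a difference of -0.71 genes (adjusted p = 0.043). That call was lost with a window of 250 bp (adjusted p = 0.059), with the summit inside the window (adjusted p = 0.055) and with either stricter set of peaks. By gene, the 15 non-TF lists held MVK 9 times, IDI1 8 times, MVD, SREBF2 and HMGCS1 7 times each and SQLE 5 times.

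Lists were also split by the start of the symbol alone (ZNF, ZFP, ZBTB, ZSCAN, ZIM, ZFAT, ZFHX, ZMYM or ZGLP against the rest), which leaves zinc finger proteins with other symbols, such as SALL1, KLF15, HIC2 and PEG3, in the second group. The 56 lists with these symbols held 3 ± 1.93 genes and the other 65 lists 2.88 ± 2.27 (SD). The difference was 0.12 genes (permutation test, adjusted p = 0.89), and 0.15 within quartiles by promoters reached (adjusted p = 0.51). HMGCS1 was held by 31 lists with these symbols and 25 others, IDI1 and SREBF2 by 25 and 32 each, and SQLE by 17 and 22.

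Lists that share an input library were looked at apart. The most used library was named by 21 preferred lists, of which 12 held IDI1, 12 MVD, 11 MVK, 7 SREBF2, 3 SQLE and 1 HMGCS1. It was the only input of 15 of them, which held IDI1 in 10, MVD and MVK in 6 each, SREBF2 in 3, SQLE in 2 and HMGCS1 in 1. Among the 12 lists with the next library as only input, IDI1 had 3, HMGCS1 5, MVD 5, MVK 6, SREBF2 4 and SQLE 2, and among the 10 of the third library IDI1 had 2 and HMGCS1 4. Without all 21 lists of the most used library, IDI1 was held by 45% of lists and HMGCS1 by 55%, so that the order of these 2 genes turned round (adjusted p = 0.11). Of the 15 pairs of genes with peaks, 7 then passed the McNemar test. MVD stayed ahead of SQLE within each of the 3 libraries, with 5 lists at MVD only and 1 at SQLE only, then 4 and 1, then 1 and 0. What the library has to do with the IDI1 and HMGCS1 counts was not tested, and the DAPs of a library differ as well.

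The strength of the peaks gave a second measure. The authors' signal is not scaled between lists, so each gene's strongest promoter peak was placed by its percentile among all peaks of its list. The median percentile was 83.7 at MVD, 81.6 at HMGCS1, 76.6 at MVK, 62.6 at SREBF2, 58.3 at IDI1 and 56.8 at SQLE. At MVD the lists ran from 5.06 to 99.7, and 20 of 75 were at 90 or more. At SQLE they ran from 8.67 to 98.3, and 5 of 39 were at 90 or more. The values of the 6 genes overlapped over most of their range. Where a list had several promoter peaks at a gene, the strongest was taken. This was so in 46 of 75 lists at MVD, 27 of 57 at IDI1 and 24 of 57 at SREBF2. At SQLE it was so in 21 of 39 lists, at HMGCS1 in 16 of 56 and at MVK in 14 of 71. What these numbers of peaks do to the percentiles was not tested.

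**Figure D4:**
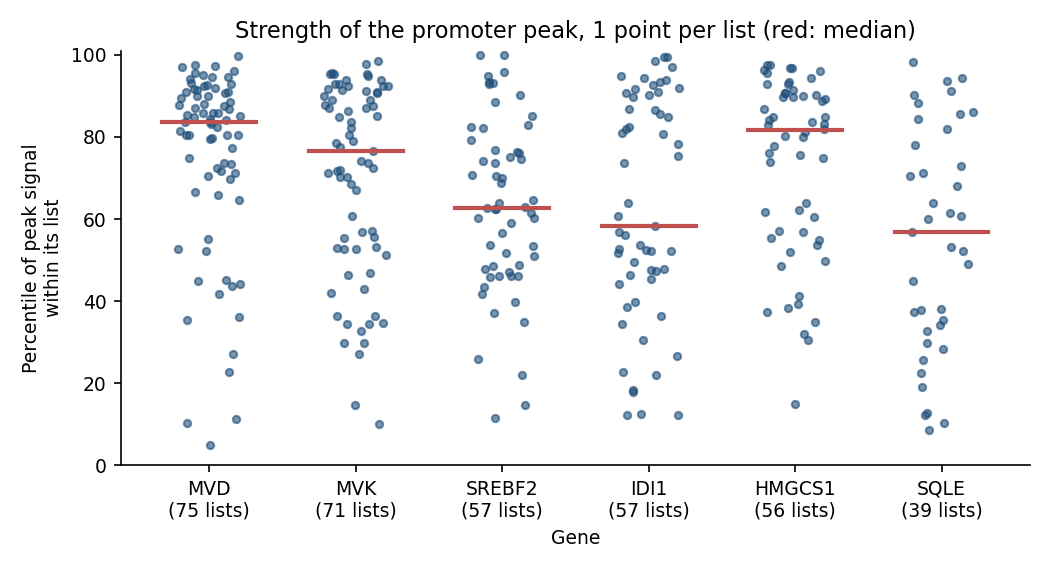
Percentile of the strongest promoter peak among all peaks of its own list by the signal column (vertical axis), 1 point per list with a peak, for the 6 genes with peaks (horizontal axis). Red lines are medians, from 83.7 at MVD to 56.8 at SQLE, and the points of every gene spread over most of the scale.

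Over lists with a peak at both genes, 8 of 15 pairs passed a sign-flip permutation test (100000 permutations, two-sided, adjusted over the 15 pairs). SQLE had a weaker peak than MVD in 27 of 32 lists, with a mean difference of -22.3 ± 29.9 percentile points (SD, adjusted p = 0.0042). SQLE was also weaker than IDI1 in 25 of 33 lists (-15.5 points, adjusted p = 0.025), than MVK in 23 of 34 (-15.7 points, adjusted p = 0.031) and than HMGCS1, which led by 13.7 points and was the stronger in 18 of 30 lists (adjusted p = 0.032). MVD exceeded IDI1 by 13.7 points and was stronger in 30 of 49 lists (adjusted p = 0.0079). SREBF2 was weaker than MVD, MVK and HMGCS1 at an adjusted p of 0.047 in each case. With the peaks ranked by the q column, 4 of the 15 pairs passed: SQLE against MVD, MVK and IDI1, and MVD against IDI1. Many lists gave both genes the same rank by that column. Of the 46 lists with peaks at HMGCS1 and MVD, 12 were higher at HMGCS1, 13 were higher at MVD and the rest were tied.

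Single lists placed these promoters near the top of their peaks. Those named first are the strongest at each gene, picked from 39 to 75 lists, and 10 to 20 lists per gene were under percentile 50. SREBF2 stood highest, with the peak of rank 26 of 42562 in the POU2F1 list, the peak of rank 26 of 41124 in the ZFP91 list, and percentile 95.8 in MED12. IDI1 had rank 210 in ZFP91, rank 269 of 44170 in ZMYM4 and rank 621 in POU2F1. MVD had rank 122 in POU2F1 and percentiles of 97.5 in ZNF669 and 97.4 in ZNF45. MVK was strongest in ZMYM2 (rank 271 of 19597), ZNF74 and ZNF275, HMGCS1 in AFF1 (rank 525 of 21743), ZMYM4 and RCOR3, and SQLE in POU2F1 (rank 721), HSF4 and HES4. POU2F1, an octamer-binding factor, thus had percentiles of 96.3 at HMGCS1, 98.3 at SQLE, 99.9 at SREBF2, 99.7 at MVD, 85.2 at MVK and 98.5 at IDI1.

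The peaks did not sit at the same place in each promoter. At HMGCS1 (canonical TSS at chr5 position 43313412, minus strand) the median summit was 69 bp downstream of the TSS, and 45 of 56 summits lay within 100 bp of that median. At IDI1 (chr10 position 1049119, minus strand) the median summit was 7 bp downstream, at MVD (chr16 position 88663091, minus strand) it was at -24 bp, and at SQLE (chr8 position 124998505, plus strand) at -15 bp. At SREBF2 (chr22 position 41833105, plus strand) it was at -328 bp, and at MVK (chr12 position 109573794, plus strand) at -380 bp, with 56 of 71 summits within 100 bp of that point and 70 of 71 upstream of the TSS. The summits of the other genes were more spread. Within 100 bp of the median lay 24 of 57 summits at IDI1 and 33 of 75 at MVD. The numbers were 17 of 39 at SQLE and 33 of 57 at SREBF2. At SREBF2 45 of the 57 summits were upstream of the TSS. Negative positions are upstream.

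Several of these windows hold a second start. A TSS of MMAB, which encodes an enzyme of cobalamin metabolism and runs the other way, lies 214 bp upstream of the canonical MVK TSS. The median MVK summit was nearer to this MMAB TSS than to the canonical MVK TSS. MVK has 17 annotated TSSs, however, and the first, at position 109573255, lies further upstream than that summit. WDR37 starts 419 bp upstream of IDI1, the antisense RNA SNAI3-AS1 207 bp upstream of MVD and SQLE-DT 307 bp upstream of SQLE. Which of the 2 genes of such a pair a peak belongs to cannot be told apart.

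**Figure D5:**
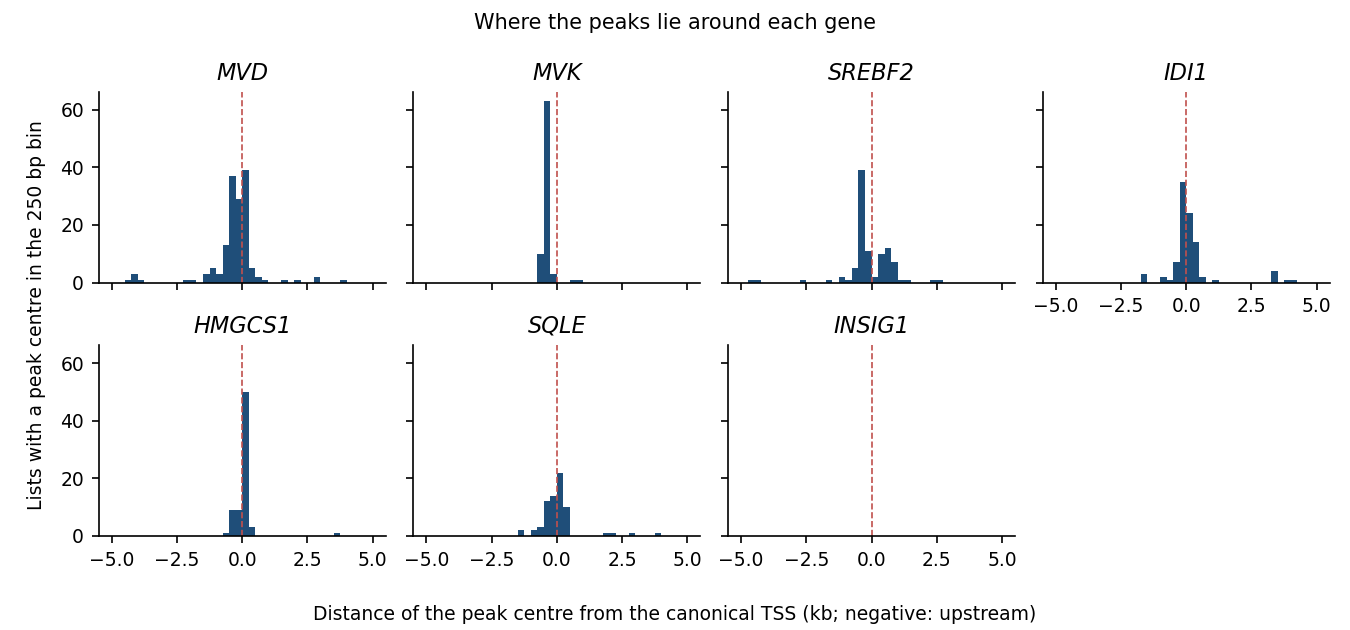
Number of preferred lists with a peak centre in each 250 bp bin (vertical axis) by distance from the canonical TSS in kb (horizontal axis, negative upstream), 1 panel per gene with the TSS dashed. Most peaks of MVK and SREBF2 stand upstream of the TSS, and SREBF2 has a second, lower group downstream, with up to 12 lists in a bin. Most of those of HMGCS1 stand just downstream, and the INSIG1 panel is empty.

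Lists without a promoter peak seldom had one close by, apart from those at MVD. Of 46 lists without a peak at MVD, 34 had one within 50 kb of its TSS, with a median distance of 17805.5 bp. At HMGCS1 only 2 of 65 such lists did, at MVK 4 of 50, at IDI1 15 of 64, at SREBF2 18 of 64 and at SQLE 23 of 82.

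The sequences printed near the opening were set beside these peaks. The core TCACNCCAC was found at HMGCS1 (TCACACCAC, starting 259 bp upstream of the TSS) and at SREBF2 (TCACCCCAC, 133 bp upstream), and in 4.32% of all promoters of the same length (500 bp to each side of the canonical start). The form TCACCCCAC, which is contained in the core, was in 1.81% of promoters. Peaks of 18 lists covered the match at HMGCS1, and 6 of them had a summit within 50 bp of it (E2F8, MED12, NCOA2, POU2F1, ZNF529 and ZNF790). Peaks of 32 lists covered that at SREBF2, with a summit within 50 bp in MED12, POU2F1, SMAD7 and ZNF18. MED12 and POU2F1 stood in both sets.

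SREBF2 also held the octamer ATGCAAAT, starting 167 bp upstream, which was searched after the rank of its POU2F1 peak was seen. No other of the 7 promoters had a match, and 3.59% of all promoters did. The POU2F1 summit lay 7.5 bp from the centre of the octamer. In that list the peaks at MVD, IDI1, SQLE and HMGCS1 also had percentiles over 96, without a match in those windows.

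CCAAT was found in all 7 promoters, against 63.8% of all promoters, and GGGCGG in all 7, against 76.9%. In the 200 bp upstream of the TSS, a window chosen after the matches were seen, CCAAT was in all 7 against 30.4% of all promoters, and at least 2 copies were in HMGCS1, SQLE, MVD and MVK against 9.73%. The E-box CACGTG was at INSIG1 only (18.3% of promoters), and CCGGAAGT was at none of the 7 (7.95% of promoters), among them IDI1, where both ELK3 and ELK4 had peaks. A match is only a run of letters, and no match says only that these letters are not in the window.

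The lists of each gene with peaks were also set beside those of the 31 other genes of the route. Likeness was the Jaccard index, the lists shared over the lists at either gene, over the preferred lists. Among those 31, PMVK was most like MVD and MVK (0.70 and 0.69). It had peaks in 72 of the 75 lists at MVD and 70 of the 71 lists at MVK. PMVK was held by 82.6% of all preferred lists, and 99.3% of protein-coding genes had fewer lists. Genes outside the route were not compared, so this overlap is not shown to be tied to the route. The index of MVD with MVK themselves was higher, at 0.72. The shared lists were 72.0% and 70.0% of the lists at PMVK. After PMVK came ACAT2 for MVK (0.64). Of the same 31 genes, SREBF2 was most like MSMO1 (0.62) and SREBF1 (0.61), and HMGCS1 like DHCR7 (0.59) and MYLIP (0.58). SQLE was most like MYLIP and LSS (0.48 each) among them, below its index with IDI1 (0.52). The index of IDI1 with TM7SF2 was 0.59. The index grows with the number of lists at both genes, so the order also follows the counts.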

How the data were processed

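ChIP-seq peak lists of 127 FLAG-tagged DAPs in HepG2 cells were used, of which 121 are preferred data sets of the study. The 24 input libraries entered only as labels. The authors ran their experiments through the ENCODE ChIP-seq pipeline, with hg38 as genome, and kept the optimal peak calls. Aligner and peak caller: not given in the sources used here. The deposited score column runs from 540 to 1000, and the deposited signal column is a peak's own value against input, which the authors did not scale between lists. The deposited q column holds negative values in 43 lists and was treated as a score. The deposited summit column is an offset in bases. Sequencing depth is unknown, and preferred lists hold 195 to 61748 peaks (median 8680).

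Peaks were overlapped (1 bp or more) with windows of 500 bp on either side of every TSS of GENCODE 44. The class of each DAP came from the study's supplement. Tests were exact McNemar, sign-flip and label permutation tests (100000 permutations), with Benjamini-Hochberg adjustment, checked on simulated data. P-values measure the spread between lists of different DAPs. Named lists were the DAPs given above with a link to lipid metabolism or chromatin, the lists with most and fewest members, the strongest lists per gene and those that separate MVD from SQLE. For the pathway, the 3 genes bound by most lists, the 3 bound by fewest and the 2 most alike per gene were named, and INSIG2 was added afterwards. Some values under the last rule are not reported here. The genes, lists and tests were chosen with earlier results of these data known. Alternatives changed the window, the TSSs, the peaks, the lists, the ranking column and, after the data were seen, the input library and the strata. Python 3.11.15, numpy 2.4.6, pandas 2.3.3, scipy 1.17.1, pysam 0.24.0 and matplotlib 3.10.9 were used.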

Additional observations from a re-analysis of the deposited data

Results flagged for a closer look

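The 6 non-preferred lists stood outside the main comparisons and entered 1 alternative, and 5 of them had peaks at these genes. The EP300 list, of a histone acetyltransferase, had peaks at 4 genes (HMGCS1, SQLE, SREBF2 and IDI1), which are the same 4 as in the preferred lists of KAT6A and HIC2. The ZNF431 list had peaks at 4 genes and the ZZZ3 list at 4 genes, in both cases SREBF2, MVD, MVK and IDI1. The other non-preferred lists held 3 (TSC22D2), 2 (ZCCHC11) and 0 (GPBP1L1, with 73 peaks). Preferred lists with 4 of the genes had 5511 to 31878 peaks, and the lists of EP300, ZNF431 and ZZZ3 had 9801 to 17599. No control list was used here for these counts.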

How the results depend on the processing

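No paired analysis was possible because each DAP has 1 list, so that replicate numbers pair no samples, whereas the tests between genes are paired over lists. Keeping only peaks with a score of 830 or more lowered the shares of the 6 genes with peaks past their intervals: HMGCS1 to 32.2% of lists, SQLE to 17.4%, SREBF2 to 27.3%, MVD to 47.9%, MVK to 38.8% and IDI1 to 32.2%. The same peaks turned the class differences to 0.20 genes (non-TF less TF) and -0.056 (zinc finger symbols less others), and peaks with a q column of 2 or more turned them to 0.44 and -0.21, none past the threshold. The non-TF difference within quartiles was -0.67 with a window of 250 bp, -0.66 with the summit inside the window, -0.35 with the q column and -0.24 with the score, each no longer past the threshold, and -0.82 within 10 groups of like reach. Ranking by the q column, where many lists were tied, left 4 of 8 strength pairs, and HMGCS1 less MVD turned to 0.21 points. HMGCS1 less SREBF2 turned to 4.13 points of lists with a window of 250 bp, 4.96 with the score, 3.31 with the summit rule, 0.94 without the lists with the most used input library as only input and 5 without every list that names it. HMGCS1 less IDI1 turned to 1.92 with the q column and to 7.55 and 10 in the same 2 settings without that library. None of these differences was called. The cause was not tested. Over all alternatives, single pairs (lists and strength) counted as the same 239 times, with no sign turned and the side of the threshold kept. They lost the call 18 times, gained it 4 times and turned round 9 times. The 239 include every pair with INSIG1, the same under all 10 alternatives because its 0 lists fix the outcome. They also include SREBF2 against IDI1 under all 10, whose main difference was 0 and had no direction to keep. Depth could not be weighed, since no read numbers are in the lists used here.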
